A study of Lactuca sativa with 36 samples.

Results

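The leaf transcriptome of Italian lettuce was compared between the beginning of a cadmium treatment and its first day. The comparison holds 6 of the 36 libraries of the series, the 3 leaf libraries of day 0 (LCd0) and the 3 leaf libraries of day 1 (LCd1), taken by their labelled tissue, treatment and day and by no measured value. Both groups came from seedlings of Lactuca sativa L. var. ramosa grown in Hoagland nutrient solution without melatonin and given 50 µmol/L CdCl2, day 0 being the start of that treatment. The other leaf libraries used below were LCd5, on day 5 of the same treatment, and LCdM0, LCdM1 and LCdM5, from seedlings kept in solution with 1 µmol/L melatonin before the CdCl2, while RCd0 and RCd1 are the roots of the Cd treatment at days 0 and 1, each group with 3 libraries. The study's methods name 3 biological repeats per treatment and do not say whether a library pools seedlings. No sequenced group was kept without CdCl2 until day 1, and the sources used here do not state the hour of harvest, so that cadmium, age and time of harvest cannot be told apart in any value below.

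Cadmium is a metal without a known function in lettuce. It binds thiols, competes with iron, zinc and calcium for transporters and binding sites, and damages chloroplasts, where chlorophyll is made and light is captured. Plants hold it back with thiol peptides derived from glutathione, which are built from cysteine and therefore draw on sulfur assimilation. Ribosome production begins in the nucleolus, where RNA polymerases transcribe the ribosomal RNA and a large set of processing factors assembles the subunits.

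Values were FPKM, fragments scaled to transcript length and to the size of the library, summed over the listed isoforms of a gene. The libraries carried the tissue of their label. The 17 members of the photosynthetic antenna list summed to between 115180 and 117257 FPKM in LCd0 and between 79872 and 93957 FPKM in LCd1, against 141 to 251 FPKM in RCd0 and RCd1. The 50 root marker genes summed to 112 to 373 FPKM in LCd0 and 83.8 to 99.6 FPKM in LCd1, against 15272 to 24996 FPKM in RCd0 and RCd1, the genes having been picked for high root and low leaf levels in the series. Between 3 and 7 of them were at 0 in an LCd0 library and 7 or 8 in an LCd1 library, and the part of this small difference in the results below was not tested. Over the 16800 genes tested, the correlation of log2(FPKM + 1) across genes was 0.953 to 0.963 between LCd0 libraries, 0.953 to 0.964 between LCd1 libraries and 0.937 to 0.955 between the groups. From 15515 to 15766 genes reached 1 FPKM in each library. The file gives no counts, and the read totals reported in the study were not used here. The steps between the lowest isoform values gave only relative depths, 0.853 to 1 times that of the first LCd0 library in LCd0 and 1 to 1.26 times in LCd1. In bulk leaf tissue, fewer cells of a type and less RNA per cell cannot be told apart.

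Leaf expression shifted in both directions on the first day, and the most abundant transcripts of the leaf lay on the falling side. Of 16800 genes tested, 496 (2.95%) differed between LCd1 and LCd0 at an adjusted p under 0.05 (limma, Benjamini-Hochberg), 153 (0.911%) of them higher and 343 (2.04%) lower on day 1. The 3 values of one day did not overlap with those of the other in any of the 496, which was the case in 24.6% of all genes tested. Among the called genes 80 of the higher and 129 of the lower ones changed by at least 1 on the log2 scale. The median log2 change was 1.02 among the higher genes, −0.91 among the lower genes and −0.06 over all genes tested. The lower genes were the more abundant ones, with a median of 130.4 FPKM over the 6 libraries against 23.0 FPKM for the higher genes and 18.1 FPKM for all genes tested. Of the 20 genes with the largest mean, 5 fell, 1 was called higher because it was listed at 0 in LCd0 (described below), and 18 had a negative log2 change.

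The balance of rises and falls depended on how the libraries were scaled. The FPKM summed to 2463705, 2397961 and 2611849 in the LCd0 libraries and to 1970733, 2159602 and 2057891 in the LCd1 libraries, without overlap. As deposited, 30.8% of the called genes were higher on day 1. With each library scaled by its median ratio to the others, 424 genes were called, 193 higher and 231 lower (45.5% higher). With every library brought to the same sum, the median of all genes moved from −0.06 to 0.18, and 789 genes were called, 663 higher and 126 lower (84.0% higher). None of the 496 genes changed sign under either scaling, and 384 and 279 of them were called again. Calls among the named genes and lists below were therefore also counted under these scalings. The spread estimate mattered as well, since a fit on the 6 libraries alone called 56 genes, and leaving out 1 library called between 149 (without LCd0 replicate 3) and 307 (without LCd1 replicate 2).

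**Figure D1:**
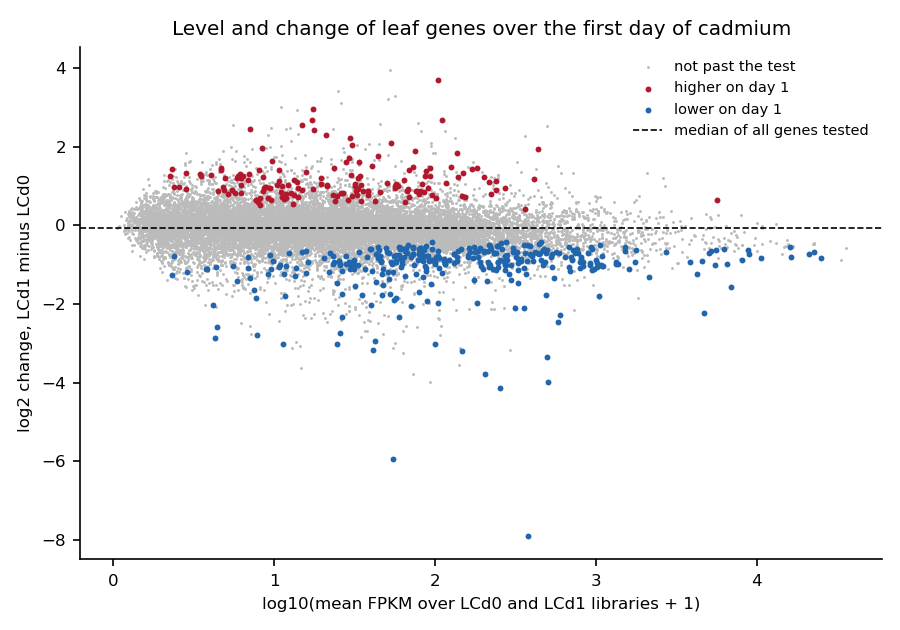
Log2 change from LCd0 to LCd1 (vertical axis, on log2(FPKM + 1)) against the log10 of the mean FPKM plus 1 over the 6 libraries (horizontal axis), 1 point for each gene tested, without genes listed at 0 in a whole group. Called genes are coloured, red for the 153 higher and blue for the 343 lower less those left out, and the dashed line is the median of all genes, −0.06; the blue points reach further to the right, the lower genes having a median of 130.4 FPKM.

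**Figure D2:**
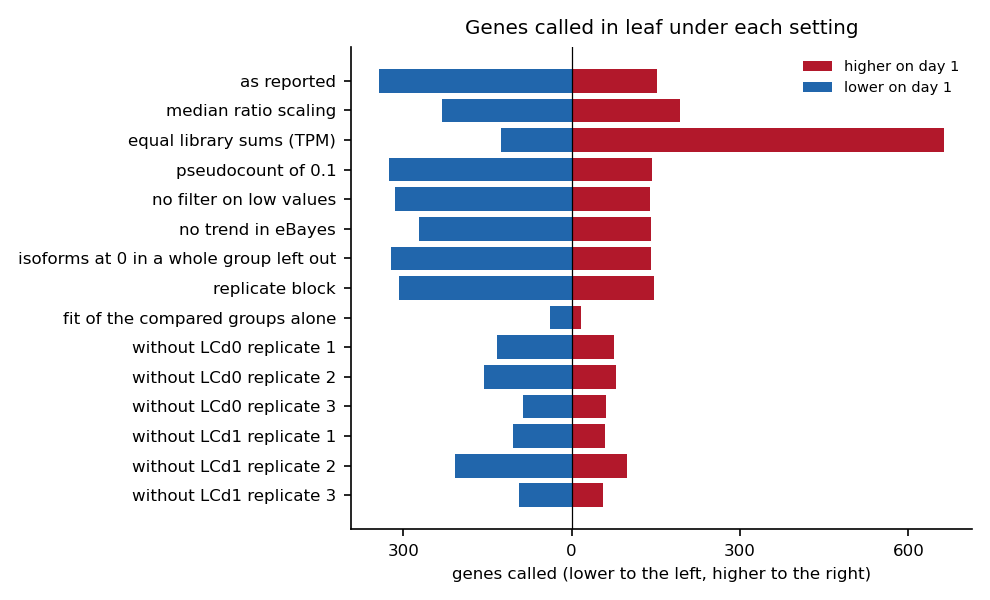
Number of genes called between LCd1 and LCd0 under each setting, with the higher genes drawn to the right and the lower genes to the left. The 153 higher and 343 lower genes of the analysis as reported stand beside 663 and 126 when every library has the same sum.

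The largest rises were of genes with low levels on day 0. Lsat_1_v5_gn_9_26160, listed under protein-disulfide reductase activity and signal transduction, had 3.40, 2.94 and 2.08 FPKM in the LCd0 libraries and 16.4, 39.4 and 35.2 FPKM in the LCd1 libraries (log2 change 2.96 ± 0.42 (SE), adjusted p = 0.0044). The day 1 libraries all stood above day 0, the first of them less so than the other 2. Lsat_1_v5_gn_4_46420 shares those 2 terms and rose as well, from 1.35, 3.78 and 2.48 FPKM to 9.82, 12.5 and 14.9 FPKM (log2 change 1.96 ± 0.26 (SE), adjusted p = 0.0028). Lsat_1_v5_gn_7_105400, a gene of porphyrin and chlorophyll metabolism, the pathway that makes and breaks down chlorophyll and heme, had 3.96, 4.07 and 5.63 FPKM on day 0 and 22.9, 31.9 and 32.4 FPKM on day 1 (log2 change 2.43 ± 0.28 (SE), adjusted p = 0.0013). It was the only one of the 25 tested members of its list that rose.

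Both genes of the chitinase list that rose belong to the enzymes that cut chitin, a polymer of fungal walls. Lsat_1_v5_gn_2_60380 had 3.95, 13.5 and 13.3 FPKM on day 0 and 47.02, 38.2 and 54.99 FPKM on day 1 (log2 change 2.22 ± 0.43 (SE), adjusted p = 0.017), and Lsat_1_v5_gn_3_125440 had 82.95, 138 and 142 FPKM and 241, 276 and 316 FPKM (log2 change 1.22 ± 0.22 (SE), adjusted p = 0.012). In both, the 3 LCd1 values lay above all LCd0 values, and the first LCd0 library was the lowest. A gene of the phenylpropanoid list that also carries a glycosyl hydrolase term, Lsat_1_v5_gn_5_172380, moved from 79.3, 148 and 70.1 FPKM to 311, 223 and 258 FPKM (log2 change 1.47 ± 0.29 (SE), adjusted p = 0.017). Lsat_1_v5_gn_6_20321, with terms for glycosyl hydrolase and transferase activity, had 4.27, 16.5 and 14.95 FPKM on day 0 and 54.3, 33.4 and 52.8 FPKM on day 1 (log2 change 2.04 ± 0.43 (SE), adjusted p = 0.024). The days did not overlap in either gene.

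Other genes among the 15 largest annotated rises carried terms of nucleotide binding and RNA. Lsat_1_v5_gn_2_109480, listed under RNA transport and GTP binding, was the most abundant of them with 177, 198 and 159 FPKM in LCd0 and 839.8, 713 and 538 FPKM in LCd1 (log2 change 1.94 ± 0.47 (SE), adjusted p = 0.042). Lsat_1_v5_gn_9_90181, listed under GTPase and transmembrane transporter activity, had 52.9, 91.6 and 52.3 FPKM and 219.5, 192 and 137 FPKM (log2 change 1.49 ± 0.38 (SE), adjusted p = 0.049). The latter has 58 listed isoforms, so that its sum joins many estimates. Lsat_1_v5_gn_4_78900 (metabolism of aromatic compounds), Lsat_1_v5_gn_3_35601 (binding), Lsat_1_v5_gn_9_74581 (iron ion binding, oxidation-reduction) and Lsat_1_v5_gn_2_107620 (macromolecule modification) rose by 1.61, 1.47, 1.43 and 1.41 on the log2 scale, with adjusted p of 0.0074, 0.0042, 0.026 and 0.026. Of these, Lsat_1_v5_gn_9_74581 had only 0, 0.326 and 0.276 FPKM on day 0 and 2.54, 0.969 and 3.74 FPKM on day 1. The largest rises without any term were Lsat_1_v5_gn_1_51360, with 8.27, 15.9 and 17.1 FPKM on day 0 and 236, 112 and 234 FPKM on day 1, and Novelgene2319, with 17.4, 21.7 and 36.4 FPKM and 184, 62.7 and 338 FPKM (adjusted p = 0.028 and 0.027). Lsat_1_v5_gn_8_66101, with 2.31, 3.25 and 2.30 FPKM against 31.3, 52.8 and 5.83 FPKM, varied widely among the day 1 libraries alone (adjusted p = 0.034).

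The largest falls included abundant genes of sulfur metabolism and redox balance. Lsat_1_v5_gn_4_59381, which carries terms for sulfur metabolism, antioxidant activity, cell redox homeostasis and isomerase activity, had 9003, 8413 and 6027 FPKM in LCd0 and 1643, 1715 and 1565 FPKM in LCd1 (log2 change −2.23 ± 0.26 (SE), adjusted p = 0.0016). The 3 day 1 values lay close together and far below the lowest day 0 value. Lsat_1_v5_gn_7_16240, under the same terms for sulfur metabolism and redox homeostasis, had 1183, 755 and 753 FPKM and 128, 58.4 and 82.7 FPKM (log2 change −3.35 ± 0.55 (SE), adjusted p = 0.0068). Lsat_1_v5_gn_8_10740, listed under antioxidant activity and cation binding, had 1216, 787 and 988 FPKM and 280.3, 193 and 149 FPKM (log2 change −2.29 ± 0.33 (SE), adjusted p = 0.0045). In all 3 genes the groups were far apart, and the fall was called with both other scalings.

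Genes of oxidation-reduction, isomerase and transport terms fell as steeply. Lsat_1_v5_gn_4_97640, an oxidoreductase by its terms, had 697, 336 and 397 FPKM on day 0 and 14.9, 47.5 and 21.6 FPKM on day 1 (log2 change −4.13 ± 0.79 (SE), adjusted p = 0.015). Lsat_1_v5_gn_2_3421, listed only under catalytic activity, had 1556, 588 and 694 FPKM and 73.2, 28.95 and 71.03 FPKM (log2 change −3.99 ± 0.70 (SE), adjusted p = 0.0095), and its first LCd0 library was above the other 2 day 0 values. Lsat_1_v5_gn_8_11480, with a term for intramolecular lyase activity, had 423, 181 and 188 FPKM and 13.6, 40.6 and 29.8 FPKM (log2 change −3.20 ± 0.79 (SE), adjusted p = 0.044). Lsat_1_v5_gn_3_48340, under lyase activity, had 684, 399.5 and 663 FPKM and 105, 155 and 138 FPKM, and Lsat_1_v5_gn_9_58680, under ion transport and protein transporter activity, had 134, 89.7 and 71.4 FPKM and 21.1, 14.6 and 19.6 FPKM (log2 changes −2.10 and −2.32, adjusted p = 0.0047 and 0.0047). Lsat_1_v5_gn_5_179820, listed under protein binding, fell by 3.01 on the log2 scale (adjusted p = 0.0074). The day 1 libraries were below all day 0 libraries in each of these genes.

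Genes with terms for DNA binding and regulation of transcription were also among the largest falls. Lsat_1_v5_gn_7_22540, a transcription factor by its terms, had 23.2, 74.7 and 123 FPKM in LCd0 and 1.79, 9.73 and 9.61 FPKM in LCd1 (log2 change −3.16 ± 0.67 (SE), adjusted p = 0.024). Lsat_1_v5_gn_3_87760 had 13.5, 93.2 and 28.1 FPKM and 4.47, 4.04 and 3.85 FPKM (log2 change −2.74 ± 0.69 (SE), adjusted p = 0.046). The day 0 values of both genes spread widely, while the day 1 values of the latter lay close together. The latter lost its call with median ratio scaling (adjusted p = 0.052). Neither gene is in the list of transcription factor activity below, which was compiled only from table cells held in full. The steepest fall without a term and without an isoform at 0 was that of Lsat_1_v5_gn_8_4241, from 657, 207 and 289 FPKM to 22.1, 20.4 and 29.1 FPKM (log2 change −3.79 ± 0.66 (SE), adjusted p = 0.0093). Lsat_1_v5_gn_4_17621, under secondary metabolites, had 12.4, 5.00 and 2.73 FPKM and 0, 0.393 and 0 FPKM (log2 change −2.58, adjusted p = 0.038). Without an isoform listed at 0 in a whole group its log2 change was −0.69 (adjusted p = 0.44).

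**Figure D3:**
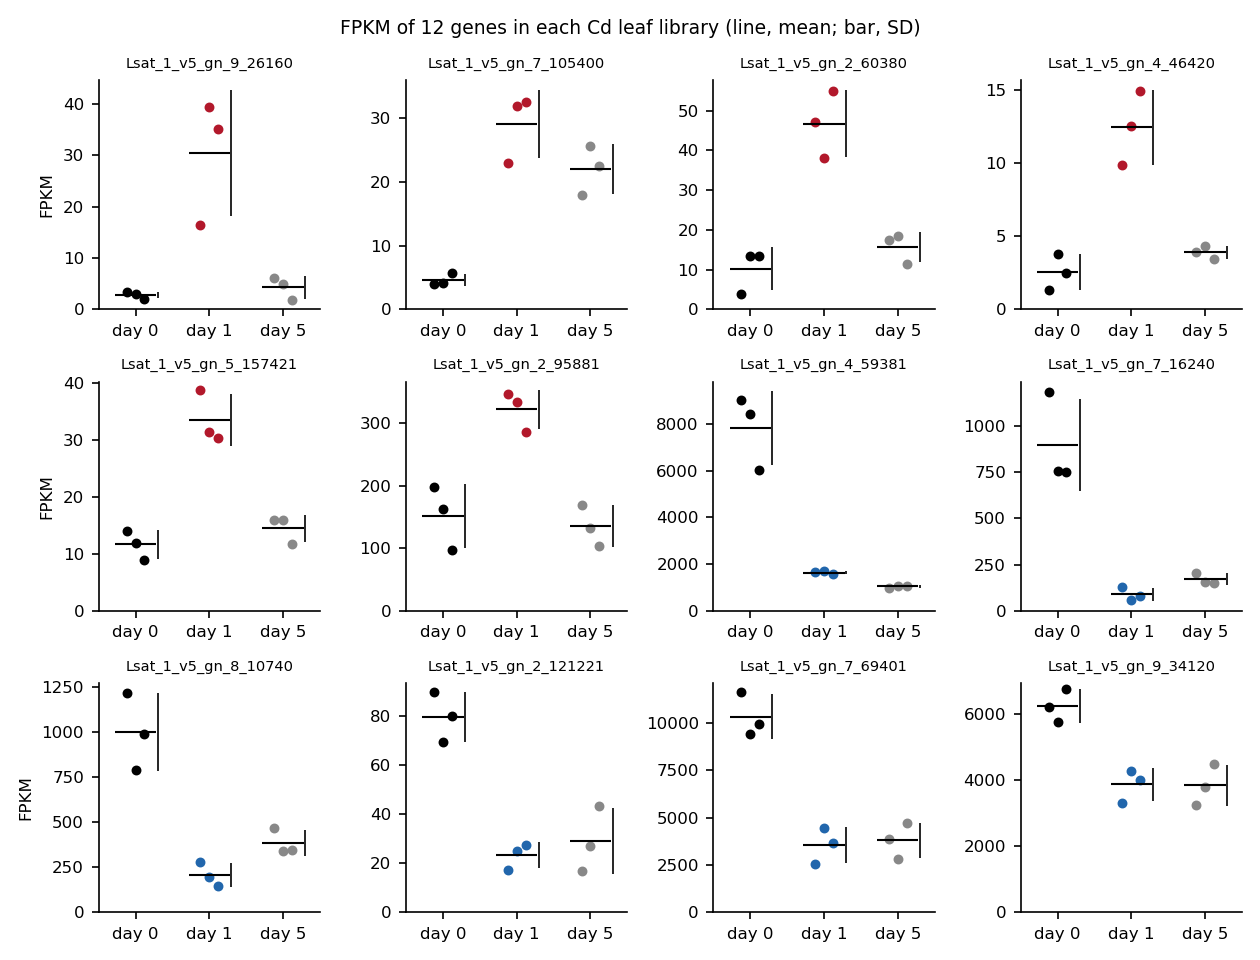
FPKM of 12 named genes in each of the 3 libraries of LCd0, LCd1 and LCd5 (points; vertical axis from 0), with the group mean as a line and 1 SD as a bar. In every panel the day 1 points lie clear of the day 0 points; Lsat_1_v5_gn_9_26160 and Lsat_1_v5_gn_4_46420 are back near their day 0 level on day 5, while Lsat_1_v5_gn_4_59381 and Lsat_1_v5_gn_7_69401 are still low.

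The gene lists that follow were compiled from the functional terms in the study's enrichment tables, and such a table holds only genes that the study had already called in some comparison. Where members came from the tables for these same 6 libraries, their direction is not independent evidence, and the number of such members is given. Tables that compare LCd0 or LCd1 with a different group share libraries with this comparison but add nothing to that number. The direction of members from them is therefore not fully independent either. The tables of other libraries named below use neither LCd0 nor LCd1. A gene can be in several lists, as peroxidases are in the redox and phenylpropanoid lists, so that lists are not separate results. For reading the counts, 0.911% of all genes tested were called higher and 2.04% lower. An unadjusted p under 0.05 by limma was found in 3048 of all 16800 genes tested.

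RNA polymerase genes rose, together with a smaller part of the genes that make ribosomes. All 10 tested genes of the RNA polymerase list, which copy DNA into RNA, were higher on day 1 (median log2 change 0.95, range 0.77 to 1.46), and all 10 had been picked from these libraries. Lsat_1_v5_gn_5_157421 had 14.1, 11.95 and 9.02 FPKM in LCd0 and 38.8, 31.5 and 30.3 FPKM in LCd1 (log2 change 1.46 ± 0.20 (SE), adjusted p = 0.0039), and Lsat_1_v5_gn_7_31561 had 23.7, 21.3 and 15.5 FPKM and 43.1, 41.7 and 41.04 FPKM (log2 change 1.04 ± 0.19 (SE), adjusted p = 0.011). Lsat_1_v5_gn_9_4760 and Lsat_1_v5_gn_8_36821 rose by 1.29 and 1.13 on the log2 scale (adjusted p = 0.028 and 0.024). The list kept all 10 calls under both scalings and between 3 and 8 with 1 library left out.

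Of 35 tested genes of ribosome biogenesis, the processing and assembly of ribosomal RNA and subunits, 5 rose, none fell and 33 had a positive log2 change (median 0.68), 22 of the 35 having been picked from these libraries. Among the 8 members also found in tables of other libraries, 3 of which had been picked from these as well, 2 rose and all 8 were positive (median 0.79). Lsat_1_v5_gn_1_70060, with terms for rRNA processing and methyltransferase activity, had 5.92, 3.57 and 2.03 FPKM and 9.52, 15.1 and 15.98 FPKM (log2 change 1.64 ± 0.37 (SE), adjusted p = 0.031). Lsat_1_v5_gn_2_95881, a GTPase of eukaryotic ribosome biogenesis by its terms, had 198, 162 and 96.96 FPKM and 347, 334 and 286 FPKM (log2 change 1.13 ± 0.28 (SE), adjusted p = 0.047). Another pair with estimates as large did not pass the test, although its days did not overlap. Lsat_1_v5_gn_5_119080 had 14.1, 5.62 and 5.58 FPKM and 20.7, 39.7 and 25.1 FPKM (adjusted p = 0.076), and Lsat_1_v5_gn_8_59100 had 47.1, 16.7 and 23.5 FPKM and 123, 63.4 and 57.8 FPKM (adjusted p = 0.37). The list took 0.244%, 0.286% and 0.210% of all FPKM in the LCd0 libraries and 0.530%, 0.386% and 0.470% in the LCd1 libraries. Such a share, here and below, compares the libraries at equal sums, the scaling that called the most genes higher. No member was called without LCd0 replicate 3, LCd1 replicate 1 or LCd1 replicate 3, and 16 were called higher with every library at the same sum.

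Of 38 tested genes of tRNA and RNA modification, 3 rose and none fell (median 0.45, 15 picked from these libraries). They were Lsat_1_v5_gn_7_21081, with 9.18, 8.30 and 5.99 FPKM and 17.3, 18.1 and 18.3 FPKM (log2 change 1.11 ± 0.17 (SE), adjusted p = 0.0047), Lsat_1_v5_gn_4_95020, an RNA helicase by its terms, and Lsat_1_v5_gn_6_69600, with ATPase and GTP binding terms (log2 changes 0.94 and 1.03, adjusted p = 0.0069 and 0.047). Lsat_1_v5_gn_8_145841 had a log2 change of 1.04 with overlapping days (adjusted p = 0.30). Like several other members it is also in the ribosome biogenesis list, so that both medians share genes. The 20 members found in tables of other libraries had a median of −0.15 and no call by limma. With equal sums 11 of the 38 rose, 4 of them among these 20.

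Genes of the ribosome itself went the other way. The list of cytosolic and organellar ribosome had 23 tested members, all picked from these libraries, of which 15 fell and none rose (median log2 change −1.05, range −2.46 to −0.67). Lsat_1_v5_gn_6_66160 had 765, 619.9 and 1550 FPKM in LCd0 and 82.7, 248 and 211 FPKM in LCd1 (log2 change −2.46 ± 0.62 (SE), adjusted p = 0.048). Lsat_1_v5_gn_2_121221 had 89.5, 69.3 and 79.6 FPKM and 17.2, 25.1 and 27.5 FPKM (log2 change −1.75 ± 0.28 (SE), adjusted p = 0.0061). Lsat_1_v5_gn_3_122401 (−1.51, adjusted p = 0.12) and Lsat_1_v5_gn_6_69461 (−1.39, adjusted p = 0.080) did not pass. The list took 0.668% to 0.910% of all FPKM in LCd0 and 0.412% to 0.534% in LCd1, and 10 members were still called lower with every library at the same sum, although Lsat_1_v5_gn_6_66160 lost its call with median ratio scaling (adjusted p = 0.054). Leaving out 1 library left between 2 and 11 calls.

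Calls among photosynthesis genes were all in one direction and modest in size. Of the 40 tested members of the photosynthesis list, 13 fell, none rose and 37 had a negative log2 change (median −0.63, 16 picked from these libraries), and among the 31 found in tables of other libraries, 7 of which had been picked from these as well, 8 fell (median −0.55). Lsat_1_v5_gn_9_9761, of photosystem II, had 143, 84.1 and 134 FPKM on day 0 and 39.6, 24.2 and 46.6 FPKM on day 1 (log2 change −1.69 ± 0.39 (SE), adjusted p = 0.033). Lsat_1_v5_gn_5_41441, with terms for photosystem II, thylakoid and isomerase activity, had 5632, 6188 and 6103 FPKM and 2431, 3178 and 2086 FPKM (log2 change −1.24 ± 0.21 (SE), adjusted p = 0.0074). Lsat_1_v5_gn_4_183261, under photosynthesis and cell redox homeostasis, fell by 1.06 on the log2 scale (adjusted p = 0.026, 0.061 with equal sums). Lsat_1_v5_gn_2_62900 had the largest estimate of the list, but its day 1 values of 0, 135 and 46.9 FPKM against 242, 175 and 245 FPKM on day 0 spread too widely to pass (log2 change −3.55 ± 1.17 (SE), adjusted p = 0.12). The list held 8.76% to 8.92% of all FPKM in LCd0 and 6.61% to 7.04% in LCd1. It kept 11 lower calls with median ratio scaling and 8 with equal sums, and between 4 and 12 with 1 library left out.

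The antenna proteins, which gather light around the photosystems, had fewer calls, in the same direction. Of 17 tested members, none of them picked from these libraries, 3 fell and 15 had a negative log2 change (median −0.45), although 1 of the 3 calls was of a gene listed at 0 on day 1. Lsat_1_v5_gn_9_34120 had 6229, 5763 and 6771 FPKM on day 0 and 3310, 4295 and 4020 FPKM on day 1 (log2 change −0.70 ± 0.14 (SE), adjusted p = 0.018, 0.054 with equal sums). Lsat_1_v5_gn_3_31061 had 7542, 7655 and 7400 FPKM and 4592, 5316 and 4912 FPKM (log2 change −0.61 ± 0.14 (SE), adjusted p = 0.031), a call lost with both scalings (adjusted p = 0.054 and 0.16). Lsat_1_v5_gn_5_6741 was close to the threshold (log2 change −0.65 ± 0.19 (SE), adjusted p = 0.084). With equal sums the median of the list was −0.18 and the antenna share of all FPKM went from 4.49% to 4.80% in LCd0 to 4.05% to 4.35% in LCd1, and the list kept 2 calls with median ratio scaling and 1 with equal sums.

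In carbon fixation, by which the leaf builds sugars from CO2, 6 of 23 tested members fell and 1 was called higher (median −0.71, 9 picked from these libraries; 3 fell with equal sums), the latter being the gene listed at 0 on day 0. Lsat_1_v5_gn_7_69401, shared with glycolysis, had 11644, 9403 and 9930 FPKM in LCd0 and 2535, 4474 and 3663 FPKM in LCd1 (log2 change −1.57 ± 0.20 (SE), adjusted p = 0.0026). Lsat_1_v5_gn_4_64540, an abundant oxidoreductase of the pathway that was chosen after its values were seen, had 33497, 27342 and 34581 FPKM and 15385, 21854 and 16994 FPKM (log2 change −0.82 ± 0.21 (SE), adjusted p = 0.049, 0.055 and 0.067 with the scalings). Lsat_1_v5_gn_4_108821, under glyoxylate metabolism and NAD binding, fell by 1.15 (adjusted p = 0.0047), and Lsat_1_v5_gn_1_130040 had a log2 change of −1.24 (adjusted p = 0.073). Of 28 tested genes of glycolysis, 5 fell and none rose (median −0.45, 7 picked from these libraries), of which 2 were called with equal sums. Lsat_1_v5_gn_8_125881, an isomerase of both pathways, had 154, 128 and 177 FPKM and 73.1, 79.3 and 76.97 FPKM (log2 change −0.98 ± 0.18 (SE), adjusted p = 0.012). Lsat_1_v5_gn_6_96720 (1.37, adjusted p = 0.47) and Lsat_1_v5_gn_3_14780 (−1.27, adjusted p = 0.18) were not called.

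Of 25 tested genes of chlorophyll and porphyrin metabolism 5 fell and 1 rose (median −0.64, 8 picked from these libraries), and among the 20 found in tables of other libraries, 3 of which had been picked from these as well, 3 fell and the same 1 rose. With equal sums 3 of the 25 fell, and with 1 library left out the list had between 2 and 7 calls. The 5 that fell had log2 changes between −0.99 and −0.77. The members with the largest negative estimates were not called, among them Lsat_1_v5_gn_9_115821 (−1.73, adjusted p = 0.094) and Lsat_1_v5_gn_1_65480 (−1.04, adjusted p = 0.13). Lsat_1_v5_gn_4_185401 rested on a single day 0 library, with 39.6, 1.15 and 1.60 FPKM against 1.75, 2.24 and 1.41 FPKM. Of 22 tested genes that make isoprenoid precursors, from which chlorophyll tails and carotenoids are built, 3 fell and all 22 had a negative log2 change (median −0.57, 8 picked from these libraries), and 1 fell with equal sums. Lsat_1_v5_gn_5_117961, of terpenoid backbone biosynthesis with a term for antioxidant activity, had 1015, 611 and 728 FPKM and 371, 265 and 289 FPKM (log2 change −1.33 ± 0.31 (SE), adjusted p = 0.035, 0.067 with equal sums). Lsat_1_v5_gn_5_123621, Lsat_1_v5_gn_5_5940 and Lsat_1_v5_gn_2_92181 had log2 changes of −2.68, −1.53 and −1.26 that did not pass the test (adjusted p = 0.17, 0.083 and 0.15).

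No gene was called higher in the leaf in the lists of antioxidant, sulfur, glutathione and peroxidase genes. Of 35 tested genes of cell redox and antioxidant activity, 12 fell and none rose (median −0.73, 21 picked from these libraries), and of the 17 found in tables of other libraries, 3 of which had been picked from these as well, 3 fell (median −0.46). The list took 0.707%, 0.608% and 0.482% of all FPKM in LCd0 and 0.232%, 0.237% and 0.209% in LCd1, and 5 members were called lower with equal sums. With 1 library left out it had between 3 (without LCd0 replicate 1) and 10 calls. Lsat_1_v5_gn_4_59381, Lsat_1_v5_gn_7_16240 and Lsat_1_v5_gn_8_10740, described above, are among its members. Lsat_1_v5_gn_1_57120 had 140.4, 266 and 107 FPKM and 27.7, 59.3 and 16.4 FPKM and did not pass (adjusted p = 0.088). Among 23 tested genes of sulfur and cysteine metabolism, which supply the thiols, 7 fell and none rose (median −0.41, 5 picked from these libraries), 1 of the 7 being listed at 0 on day 1. With equal sums 6 of them were still lower, and Lsat_1_v5_gn_5_146820, at 2690, 2855 and 2706 FPKM on day 0, had 1439, 326 and 950.0 FPKM on day 1 without passing (log2 change −1.85 ± 0.50 (SE), adjusted p = 0.062).

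Glutathione, the thiol from which the cadmium-binding peptides are made, had a list of 6 members, all picked from these libraries, of which 4 fell and all 6 were negative (median −0.75). Lsat_1_v5_gn_2_115281 had 55.5, 40.2 and 33.8 FPKM and 14.98, 23.2 and 25.2 FPKM (log2 change −1.001 ± 0.25 (SE), adjusted p = 0.049). Lsat_1_v5_gn_1_3240, under glutathione metabolism and antioxidant activity, had 329.6, 290.4 and 351 FPKM and 148, 198 and 164 FPKM (log2 change −0.93 ± 0.21 (SE), adjusted p = 0.028). Lsat_1_v5_gn_5_62040 and Lsat_1_v5_gn_5_121061 fell by 0.79 and 0.72 (adjusted p = 0.046 and 0.033). With median ratio scaling 2 of the 6 were called, with equal sums 1 (Lsat_1_v5_gn_1_3240), and with 1 library left out between 0 and 2. None of the 11 tested peroxidases, which spend hydrogen peroxide on phenolics, was called by limma (median −0.28, 1 at an unadjusted p under 0.05), Lsat_1_v5_gn_8_13440 having the largest estimate (−1.35, adjusted p = 0.18), ahead of Lsat_1_v5_gn_1_120340 (−0.73) and Lsat_1_v5_gn_1_30481 (0.59). The peroxidase list was low in leaf, with 11 of its 19 members past the filter. It held 0.0040% to 0.0053% of all FPKM in LCd0 and 0.0043% to 0.0057% in LCd1.

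Calls in transport of metal ions went in both directions. Of 45 tested members 2 rose and 2 fell (median −0.44, 4 picked from these libraries), and of the 34 found in tables of other libraries 2 fell and none rose. Those that rose were Lsat_1_v5_gn_9_27541, also in the RNA polymerase list, and Lsat_1_v5_gn_5_179901, with terms for iron transport, GTPase and ribosome biogenesis (log2 changes 0.86 and 1.27). Those that fell were Lsat_1_v5_gn_4_117720, also in the ribosome list, and Lsat_1_v5_gn_7_45281 (−1.05 and −0.88). These 4 are named because they are the only calls of the list, and with equal sums or median ratio scaling 1 of the falls was called. The members with the largest estimates were not called and varied between day 1 libraries. Lsat_1_v5_gn_8_106761 had 47.4, 55.8 and 50.01 FPKM on day 0 and 61.3, 0.416 and 4.84 FPKM on day 1, and Lsat_1_v5_gn_6_13481 had 1437, 1472 and 1606 FPKM and 1305, 178 and 306 FPKM (adjusted p = 0.15 and 0.076). In both, the first LCd1 library resembled day 0 and the other 2 did not, and both were called without it (log2 changes −4.17 and −2.68). Lsat_1_v5_gn_4_44480, also a cation transporter, had 13.8, 11.7 and 6.34 FPKM and 4.35, 0 and 0.272 FPKM (adjusted p = 0.13). None of 26 tested genes of copper ion binding was called (median 0.08, 1 at an unadjusted p under 0.05), including Lsat_1_v5_gn_8_122180 (1.18) and Lsat_1_v5_gn_9_34320 (−0.81), its members with the largest estimates.

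Among the remaining metabolic lists, 4 of 44 tested genes of steroid biosynthesis fell and none rose (median −0.29), including Lsat_1_v5_gn_5_149640 with 81.7, 70.3 and 70.1 FPKM and 30.5, 21.9 and 32.3 FPKM (log2 change −1.38 ± 0.18 (SE), adjusted p = 0.0029) and Lsat_1_v5_gn_6_80041 with 386, 337 and 396 FPKM and 174, 177 and 157 FPKM (log2 change −1.13 ± 0.16 (SE), adjusted p = 0.0038). Both carry the term 3-beta-hydroxy-delta5-steroid dehydrogenase activity, as does Lsat_1_v5_gn_1_96821 (−1.12, adjusted p = 0.038, 0.050 with equal sums and no longer called). The 4 had log2 changes between −1.38 and −0.92, and with equal sums 3 of the list fell and 1 rose. In nitrogen metabolism, 1 of 10 tested genes fell (median −0.34), Lsat_1_v5_gn_5_77601, which links ammonium with amino acids by its terms and had 1880, 1499 and 1925 FPKM and 671, 1199 and 857 FPKM (log2 change −0.99 ± 0.21 (SE), adjusted p = 0.025). Of 37 tested genes of phenylpropanoid biosynthesis 1 rose and 1 fell (median −0.22; 2 rose and 1 fell with equal sums), the latter being Lsat_1_v5_gn_6_101780, with antioxidant activity among its terms (log2 change −1.30 ± 0.26 (SE), adjusted p = 0.018). Lsat_1_v5_gn_8_99521, shared with flavonoid biosynthesis, had 495, 289 and 284 FPKM and 57.8, 159 and 76.6 FPKM without passing (adjusted p = 0.068). None of 14 tested genes of cellulose synthesis was called by limma, nor did any have an unadjusted p under 0.05 (median −0.10, 0.14 with equal sums). Of 19 tested genes of protein folding 1 fell (median −0.47), while with equal sums none fell and 3 rose, and its largest estimates were of Lsat_1_v5_gn_5_41561 and Lsat_1_v5_gn_2_1300 (−1.16 and −1.13, adjusted p = 0.068 and 0.086).

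Of the signalling and defence lists, only chitinase had calls on the first day in the analysis as reported. Of 9 tested chitinases 2 rose and none fell (median 0.11, 3 picked from these libraries), of which 1 was called without LCd0 replicate 1 or LCd1 replicate 1 and none without LCd1 replicate 3. Another member, Lsat_1_v5_gn_8_111541, had 51.7, 66.1 and 57.6 FPKM and 146, 137 and 101 FPKM without overlap but missed the threshold (log2 change 1.11 ± 0.31 (SE), adjusted p = 0.068, 0.029 with equal sums). None of 38 tested genes of plant hormone signal transduction was called (median −0.01, 9 at an unadjusted p under 0.05), while with equal sums the median was 0.24 and 2 rose. Its largest positive estimates were those of Lsat_1_v5_gn_4_98481, with 11.6, 10.5 and 7.71 FPKM and 62.4, 11.1 and 64.5 FPKM, and Lsat_1_v5_gn_7_107201, with 2.37, 0 and 4.41 FPKM and 7.50, 6.43 and 7.67 FPKM (adjusted p = 0.29 and 0.17), followed by Lsat_1_v5_gn_3_45581 (1.59, adjusted p = 0.057, 0.038 with equal sums). None of 28 tested genes of plant-pathogen interaction was called (median 0.09, 8 at an unadjusted p under 0.05; 1 rose with median ratio scaling and 2 with equal sums), nor any of 13 of calcium ion binding (median −0.88, 5 at an unadjusted p under 0.05). In the former Lsat_1_v5_gn_9_1180 and Lsat_1_v5_gn_5_143381 had the largest estimates (−1.78 and 1.57, adjusted p = 0.14 and 0.20), and in the latter Lsat_1_v5_gn_1_14060 and Lsat_1_v5_gn_2_87480 the largest falls by estimate (−2.37 and −2.30, adjusted p = 0.23 and 0.10). None of 12 tested members of the transcription factor activity list was called (median −0.18, 0.06 with equal sums; 3 at an unadjusted p under 0.05). None of 8 of circadian rhythm was called (median −0.22, 0.05 with equal sums; 2 at an unadjusted p under 0.05), where Lsat_1_v5_gn_2_76880, also of flavonoid biosynthesis, had 898, 245 and 425 FPKM and 20.1, 83.7 and 72.7 FPKM (log2 change −3.16 ± 0.86 (SE), adjusted p = 0.062).

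**Figure D4:**
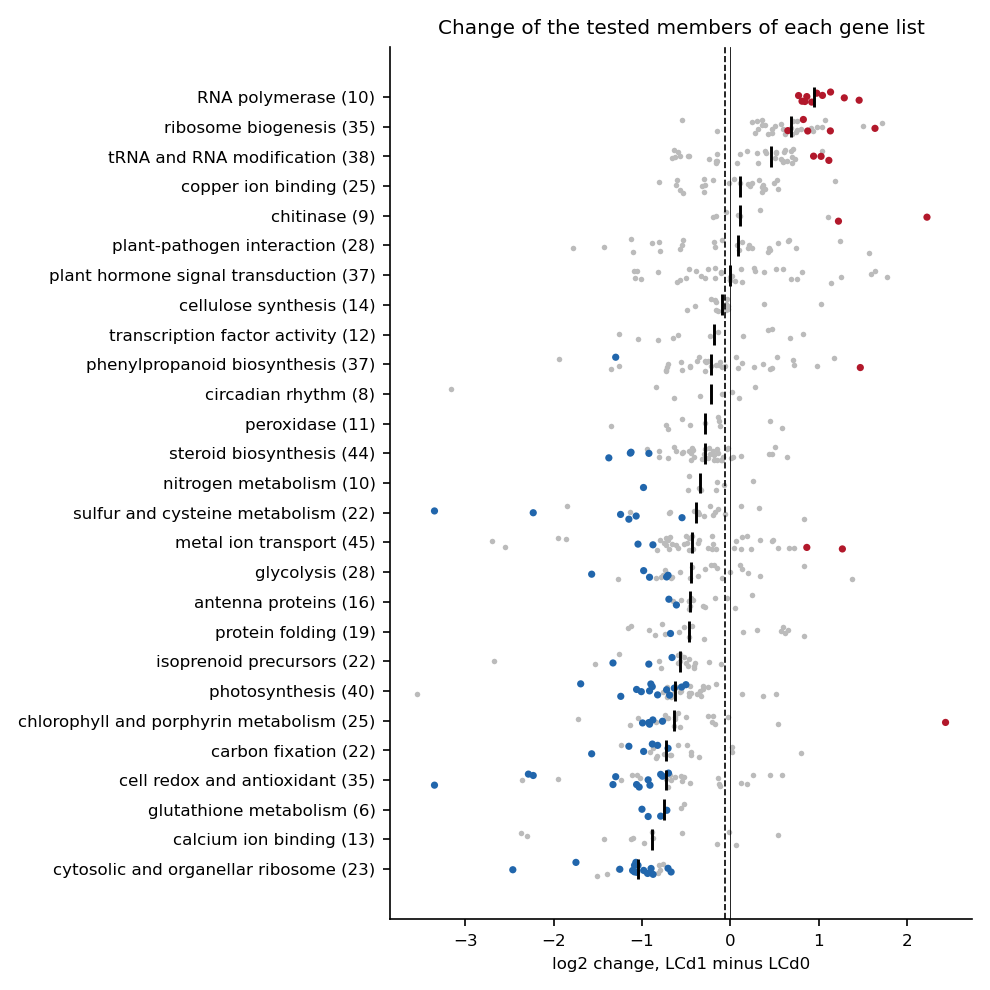
Log2 change from LCd0 to LCd1 (horizontal axis) of each tested member of the 27 gene lists, 1 point for each gene with small vertical jitter, without genes listed at 0 in a whole group (number of genes in parentheses). Coloured points passed the test (red higher, blue lower). The short black bars are list medians and the dashed line is the median of all genes, −0.06. RNA polymerase and ribosome biogenesis lie to the right and the ribosome list to the left. All 10 RNA polymerase genes, all 23 ribosome genes and 22 of the 35 of ribosome biogenesis had been picked from these libraries. Their side is therefore not independent evidence.

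The antioxidant and hormone genes that the study's text names by identifier were not called in this comparison. The study describes most of them for melatonin treatment or for root against leaf, so that a missing call here does not bear on those statements. Of the 22, 1 has no row under its identifier, 2 laccases stayed below the filter and 19 were tested, and none of the 19 passed in limma, 2 having an unadjusted p under 0.05. Over all 16800 genes tested, 3048 had an unadjusted p under 0.05. The copper-zinc superoxide dismutases, which turn superoxide into hydrogen peroxide, had log2 changes of −0.16, 0.19 and 0.25 (Lsat_1_v5_gn_2_58341, Lsat_1_v5_gn_6_16060 and Lsat_1_v5_gn_6_43340; adjusted p = 0.71, 0.91 and 0.86). The last had 64.3, 55.4 and 64.2 FPKM on day 0 and 28.1, 139 and 98.5 FPKM on day 1, its day 1 values lying on both sides of day 0. The APX-like gene Novelgene1716, of ascorbate peroxidase, had 451, 520.1 and 591 FPKM and 385, 359 and 305 FPKM, without overlap and without a call (log2 change −0.57 ± 0.20 (SE), adjusted p = 0.15). Of the POX-like peroxidases, Lsat_1_v5_gn_9_8540 had 647, 785 and 891 FPKM and 452, 429 and 546 FPKM (adjusted p = 0.076), while Lsat_1_v5_gn_4_26041 had 23.1, 62.3 and 53.4 FPKM and 152, 15.5 and 147 FPKM with the second LCd1 library below day 0 (adjusted p = 0.74). Lsat_1_v5_gn_7_80360 and Novelgene2763 had log2 changes of 0.32 and 0.37.

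The remaining named genes were not called either. The trxA-like thioredoxins Lsat_1_v5_gn_5_4600 and Lsat_1_v5_gn_7_18261 had log2 changes of −0.76 and 0.08, the GSH-like gene Lsat_1_v5_gn_5_187421 of −0.31, and the lipoxygenase Lsat_1_v5_gn_5_148821 of −0.04 (SE 0.19). The 4 laccases tested, Lsat_1_v5_gn_8_71281, Lsat_1_v5_gn_9_36021, Lsat_1_v5_gn_3_76141 and Lsat_1_v5_gn_9_24581, were low, the highest value being 4.99 FPKM, and had log2 changes of 0.11 to 0.50. In hormone signalling, the ABF-like factor Lsat_1_v5_gn_1_21140, which acts downstream of abscisic acid, had 18.7, 26.4 and 19.01 FPKM and 18.8, 12.996 and 10.8 FPKM (log2 change −0.57 ± 0.27 (SE), adjusted p = 0.29), and the JAR1-like genes Lsat_1_v5_gn_4_34281 and Lsat_1_v5_gn_7_2120, of the enzyme family that joins jasmonate to an amino acid, had log2 changes of 0.31 and −0.22. Standard errors over the 19 ran from 0.18 to 0.88 on the log2 scale.

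Of 2002 genes tested that are known only from the study's long-read assembly, 24 rose and 13 fell, and among the 570 with a description from a protein database 6 rose and 4 fell. Over all 16800 genes tested, 153 (0.911%) rose and 343 (2.04%) fell. A receptor-like kinase described as FERONIA, Novelgene0845, had 66.3, 77.8 and 79.2 FPKM on day 0 and 164, 178 and 134 FPKM on day 1 (log2 change 1.08 ± 0.19 (SE), adjusted p = 0.0093). FERONIA senses cell wall and peptide signals in Arabidopsis. Novelgene0191, described as the flagellin receptor kinase FLS2 of Arabidopsis, had 37.4, 68.3 and 55.03 FPKM and 95.02, 90.1 and 104 FPKM (log2 change 0.87 ± 0.19 (SE), adjusted p = 0.027). Descriptions of this kind name the nearest protein and not the gene's own function, and receptor kinases form a large family.

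Among the other described genes that rose, Novelgene1418 (homolog of ACC oxidase) had 20.1, 20.5 and 25.3 FPKM and 38.04, 36.9 and 37.4 FPKM, Novelgene1233 (cyclic nucleotide-gated channel) had 3.36, 2.63 and 1.46 FPKM and 4.77, 4.98 and 6.22 FPKM, Novelgene1163 (cyclin-dependent kinase inhibitor) had 0.442, 0.469 and 0 FPKM and 1.53, 1.74 and 3.26 FPKM, and Novelgene0330, a hypothetical protein with the term small-subunit processome, is among the 5 rises of ribosome biogenesis. Those that fell were Novelgene0678, described as a tetraketide alpha-pyrone reductase, with 532, 513 and 550.0 FPKM and 299, 280.1 and 266 FPKM (log2 change −0.92 ± 0.14 (SE), adjusted p = 0.0047), Novelgene0593 and Novelgene0360, named after bacterial proteins (−0.92 and −0.66), and Novelgene1082, a protein phosphatase 2C by description (−1.03, adjusted p = 0.047). The last 3 lost their calls with equal sums. The gene with the largest mean over the 6 libraries, Novelgene0968, described as chloroplast ferredoxin and chosen after its values were seen, had 48826, 37538 and 41106 FPKM and 22564, 38162 and 25804 FPKM. Its second LCd1 library lay within the day 0 range, and it was not called (adjusted p = 0.14).

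Some of the largest differences rested on values of exactly 0 in a whole group. In a table of estimates without counts such a 0 can be a failed estimate, so that no size of change is given for them. Lsat_1_v5_gn_4_153980, with terms for carbon fixation and glyoxylate metabolism, was listed at 0 in all 3 LCd0 libraries and at 44123, 69726 and 48760 FPKM in LCd1, the largest values of those libraries. It was also listed at 0 in all 3 LCdM0 libraries. Lsat_1_v5_gn_2_79600, which carries the same terms and was chosen after its values were seen, had 53104, 28697 and 46747 FPKM in LCd0 and 14254, 35047 and 23102 FPKM in LCd1 and was listed at 0 in LCdM0, where both were at 0 together. Their sum was 53104, 28697 and 46747 FPKM in LCd0 and 58377, 104773 and 71862 FPKM in LCd1. Whether they share reads was not tested, and neither direction is certain. The antenna gene Lsat_1_v5_gn_5_144981 had 177, 258 and 217 FPKM in LCd0 and was listed at 0 in all LCd1, LCdM1 and LCd5 libraries.

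In all, 7 genes were at 0 throughout one day and never under 5 FPKM on the other. Beside Lsat_1_v5_gn_4_153980 and Lsat_1_v5_gn_5_144981, Lsat_1_v5_gn_8_134041 had 5.43, 6.73 and 10.9 FPKM and Lsat_1_v5_gn_5_30800 10.3, 12.96 and 28.8 FPKM on day 0 with 0 on day 1, Lsat_1_v5_gn_4_21220 had 17.3, 10.8 and 17.9 FPKM on day 0 with 0 on day 1, and Lsat_1_v5_gn_8_166680 and Lsat_1_v5_gn_7_11501 were at 0 on day 0 with 5.83, 6.73 and 5.31 FPKM and 28.2, 10.9 and 50.97 FPKM on day 1. Of the 496 called genes 6 were at 0 in a whole group. At the level of isoforms, 59 isoforms of 51 genes, 13 of them called, were at 0 in one group and at 1 FPKM or more in the other. Without those isoforms 464 genes were called (142 higher and 322 lower), 463 of them among the 496. The steepest falls outside the 7 genes were of this kind, as Novelgene3024, with 467, 587 and 1201 FPKM and 3.71, 0.755 and 1.98 FPKM, and Lsat_1_v5_gn_2_93080, with 138, 88.6 and 96.3 FPKM and 0.710, 1.06 and 0.478 FPKM, had log2 changes of −0.21 and 0.10 without the isoform at 0 and were no longer called.

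The same interval was measured in leaves pretreated with melatonin, in libraries that entered the fit above only through the filter on low values and the shared estimate of the spread. Between LCdM0 and LCdM1, 43 of 16800 genes (0.256%) were called, 23 higher and 20 lower. Of the 496 genes called in Cd leaves, 479 (96.6%) had the same sign there, against 66.8% of all genes tested, and 29 (5.85%) were called there, all with the same sign. The median change of the 496 in their own direction was 0.52 in the melatonin leaves and 0.93 in the Cd leaves, where they had been selected for their size. Conversely 40 of the 43 genes called in melatonin leaves had the same sign in Cd leaves, and 29 were called in both.

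Several of the largest rises and falls were called in those libraries as well. Lsat_1_v5_gn_9_26160 went from 3.42 ± 1.13 FPKM (mean ± SD, n = 3) to 27.7 ± 13.6 FPKM with melatonin (log2 change 2.62, adjusted p = 0.021). Lsat_1_v5_gn_7_105400 went from 4.74 ± 0.981 to 17.3 ± 6.35 FPKM (log2 change 1.61, adjusted p = 0.021), and Lsat_1_v5_gn_4_59381 from 6892 ± 832 to 2109 ± 611 FPKM (log2 change −1.74, adjusted p = 0.016). By contrast Lsat_1_v5_gn_7_22540 had 18.3 ± 7.86 FPKM in LCdM0, against a mean of 73.5 FPKM and a lowest value of 23.2 FPKM in LCd0, and a log2 change of −0.53, and Lsat_1_v5_gn_8_66101 had a log2 change of −0.17. For 5 of the lists with calls in Cd leaves the median had the same sign in melatonin leaves, at 0.40 for RNA polymerase, 0.38 for ribosome biogenesis, −0.71 for the ribosome, −0.43 for photosynthesis and −0.77 for cell redox and antioxidant activity. The median had the opposite sign in 5 of the 27 lists, none of them with more than 2 calls in Cd leaves, being 0.04 for peroxidase, −0.02 for chitinase, −0.16 for copper ion binding, 0.19 for transcription factor activity and 0.18 for hormone signal transduction.

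A test of the difference between both arms, over the same 16800 genes, called 2 genes (0.0119%), Lsat_1_v5_gn_2_79600 and Lsat_1_v5_gn_8_134041, and both rested on values listed at 0 in a whole group. Without isoforms at 0 in a whole group limma called no gene, while 585 of 16756 genes had an unadjusted p under 0.05. In the analysis as reported, 617 genes (3.67%) had an unadjusted p under 0.05. The higher number of calls in Cd leaves than in melatonin leaves was thus not matched by genes whose change differed by this test. A p that misses the threshold does not show that the changes were equal, and the median standard error of the change in Cd leaves was 0.25 over all genes.

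**Figure D5:**
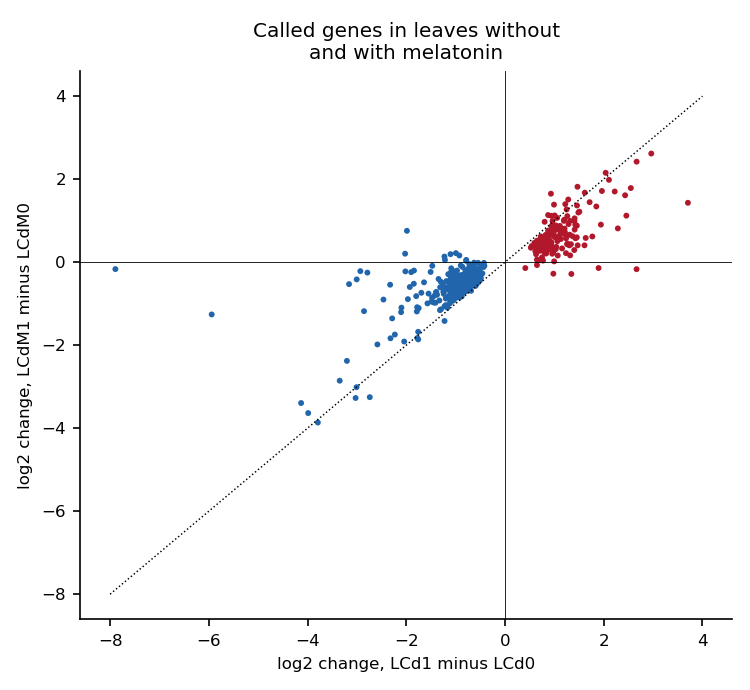
Log2 change from day 0 to day 1 in leaves with melatonin (LCdM, vertical axis) against that in leaves without it (LCd, horizontal axis) for the genes called in LCd, without those listed at 0 in a whole group; the dotted line marks equal changes. Nearly all points have both changes on the same side of 0, 479 of the 496 called genes having the same sign, and most lie closer to 0 on the vertical axis.

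Roots were sampled over the same interval. Over all 36 libraries, 1320 of 18056 genes (7.31%) were called between RCd0 and RCd1, 616 higher (3.41%) and 704 lower (3.9%). Of the 496 genes called in leaf, 227 (45.8%) had the same sign in root, against 48.5% of the 16800 genes, and 63 were called in root, 23 of them with the same sign. Of the 153 that rose in leaf 91 (59.5%) had the same sign in root, and of the 343 that fell 136 (39.7%), of which 10 and 13 were called in root in that direction. The change differed between leaf and root in 1152 genes (6.38%) by the test of the difference itself, 466 (2.58%) with the larger value in leaf and 686 (3.8%) with the larger value in root.

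Lsat_1_v5_gn_8_10740, the antioxidant gene that fell in leaf, went from 59.02 ± 17.5 to 328 ± 35.1 FPKM in root (log2 change 2.49), and the difference of the changes was −4.78 (adjusted p = 9.8e-08). Lsat_1_v5_gn_9_26160 went from 59.6 ± 21.99 to 24.7 ± 3.57 FPKM in root, a fall by the test (adjusted p = 0.043), against its rise in leaf (difference 4.15, adjusted p = 1.5e-05). Lsat_1_v5_gn_8_10740 and Lsat_1_v5_gn_9_26160 had been named for their large leaf changes, so that part of each difference is built into that choice. Both chitinase genes that rose in leaf rose in root as well. Lsat_1_v5_gn_2_60380 went from 16.1 ± 1.27 to 66.9 ± 34.3 FPKM and Lsat_1_v5_gn_3_125440 from 23.3 ± 7.06 to 97.1 ± 32.1 FPKM in root (log2 changes 1.87 and 2.01, adjusted p = 0.0048 and 0.00011), and the chitinase list had a median of 1.48 in root against 0.11 in leaf. All 9 chitinase members are also in the study's tables of other libraries, most of which are root comparisons. A larger change in root may thus be built into that choice. The ribosome list had a root median of −0.07 against −1.05 in leaf, and RNA polymerase 0.26 against 0.95, but all members of both lists had been picked from the leaf libraries, so that a larger change in leaf is built into that choice.

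By day 5 several of the rises and of the falls were gone, while others were still seen. Lsat_1_v5_gn_9_26160 was at 4.29 ± 2.24 FPKM in LCd5 (log2 change from LCd1 −2.58, adjusted p = 0.0045), Lsat_1_v5_gn_4_46420 at 3.89 ± 0.454 FPKM (−1.44, adjusted p = 0.0064) and Lsat_1_v5_gn_5_157421 at 14.5 ± 2.41 FPKM (−1.16, adjusted p = 0.0062). Lsat_1_v5_gn_1_51360 was at 5.48 ± 0.690 FPKM and Lsat_1_v5_gn_2_60380 at 15.7 ± 3.74 FPKM, both lower than on day 1 by the test (adjusted p = 0.0054 and 0.046). None of these 5 genes had an LCd5 mean above its highest LCd0 value by more than 1 SD.

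Lsat_1_v5_gn_7_105400 was at 22.02 ± 3.88 FPKM on day 5, little below day 1 (adjusted p = 0.43). Other rises also lay above all their LCd0 values in each LCd5 library. Among them, Lsat_1_v5_gn_5_172380 had 200, 202 and 213 FPKM, Lsat_1_v5_gn_2_109480 801, 436 and 272 FPKM and Lsat_1_v5_gn_6_20321 34.9, 38.5 and 24.8 FPKM in LCd5. Of the genes that fell, Lsat_1_v5_gn_4_59381 was at 1050 ± 51.7 FPKM, Lsat_1_v5_gn_2_3421 at 69.2 ± 39.7 FPKM and Lsat_1_v5_gn_7_69401 at 3797 ± 938 FPKM, none of them different from LCd1 by the test (adjusted p = 0.15, 0.90 and 0.81). Others had risen again, among them the transcription factor gene Lsat_1_v5_gn_7_22540 at 69.8 ± 31.4 FPKM and the transporter gene Lsat_1_v5_gn_9_58680 at 69.7 ± 16.1 FPKM (log2 changes from LCd1 3.28 and 1.85, adjusted p = 0.012 and 0.0089). These comparisons share the LCd1 libraries with the first-day comparison, and no relation between both changes is given.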

How the data were processed

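Leaf and root RNA of 36 libraries was sequenced in the study as paired-end short reads and set against a transcript model from long reads. Per the study's methods, the authors aligned reads with TopHat2 and derived FPKM, and the submitters' processing notes name Bowtie2 2.0.6 and TopHat2 2.0.12. The deposited values are FPKM for each of 59872 isoforms, with no counts, so that the count test of the study could not be run. The sources used here do not name the tool that split reads among isoforms.

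FPKM were summed over isoforms to 19584 genes. Genes reaching 1 FPKM in 3 or more libraries were tested by limma 3.58.1 (R 4.3.3) on log2(FPKM + 1) over all 18 leaf libraries (36 for root), with an intensity trend and Benjamini-Hochberg adjustment, two-sided, at 0.05. A log2 change on this scale understates that of low genes. The libraries of a group are biological repeats per the methods, and replicate numbers were not taken as pairs. The scripts were tested on simulated data. Tables were made with Python 3.11.15 and pandas 2.3.3.

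Named genes were the 15 largest rises and falls with a term or description and separate groups, the 4 largest without one, the members of each list with the largest change, the genes the study names, and genes listed at 0 in a group. Root markers were the 50 genes highest in root among those low in melatonin leaves. Lists use only table cells held in full (970 of 1480). Members and lists were chosen with earlier results of these data known. Alternatives covered scaling, pseudocount, filter, trend, isoforms, block, fitted samples and left-out libraries, and leaving out isoforms at 0 in a whole group was added after seeing the data. No genome of the files' build was used, so that no coordinates or sequences are given.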

Additional observations from a re-analysis of the deposited data

Results flagged for a closer look

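Changes that differed between arms or tissues by the test of the difference itself are given here as values. Between leaves without and with melatonin, the day 0 to day 1 changes of Lsat_1_v5_gn_2_79600 and Lsat_1_v5_gn_8_134041 differed (limma, adjusted p = 5.4e-08 and 0.00013). Both rested on values listed at 0, in LCdM0 for the former and in LCd1, LCdM0 and LCdM1 for the latter, so that no size is given. Between leaf and root, 1152 genes differed. The named genes that follow were chosen for the size of their leaf change, so that a difference in that direction is partly built in.

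Among the named genes, the change in leaf exceeded that in root by 4.15 in Lsat_1_v5_gn_9_26160, 3.37 in Lsat_1_v5_gn_1_51360, 2.71 in Lsat_1_v5_gn_6_20321, 2.46 in Lsat_1_v5_gn_7_105400, 2.22 in Lsat_1_v5_gn_4_46420, 2.14 in Lsat_1_v5_gn_1_70060, 1.69 in Lsat_1_v5_gn_5_172380, 1.16 in Lsat_1_v5_gn_2_107620, 1.15 in Lsat_1_v5_gn_5_157421 and 0.94 in Lsat_1_v5_gn_3_35601 on the log2 scale. The adjusted p ran from 1.5e-05 to 0.0499 over these genes. In root, Lsat_1_v5_gn_1_51360 had 2095 ± 868 FPKM on day 0 and 2519 ± 285 FPKM on day 1.

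A negative difference passed the test in only some of the named genes that fell in leaf. It was −2.80 in Lsat_1_v5_gn_4_59381, −2.84 in Lsat_1_v5_gn_3_87760, −3.07 in Lsat_1_v5_gn_7_22540, −3.15 in Lsat_1_v5_gn_4_97640, −3.40 in Lsat_1_v5_gn_9_58680, −3.95 in Lsat_1_v5_gn_5_179820, −4.59 in Lsat_1_v5_gn_7_16240, −4.78 in Lsat_1_v5_gn_8_10740, −4.99 in Lsat_1_v5_gn_8_4241 and −6.00 in Lsat_1_v5_gn_2_3421. Differences of −9.34 in Novelgene3024, −9.24 in Lsat_1_v5_gn_2_93080 and −3.03 in Lsat_1_v5_gn_4_17621 rested on isoforms listed at 0 on day 1. Lsat_1_v5_gn_2_3421 had 46.7 ± 25.8 FPKM in RCd0 and 178 ± 45.3 FPKM in RCd1.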

How the results depend on the processing

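The number of genes called between LCd1 and LCd0, 496 (153 higher and 343 lower), was 789 (663 and 126) with equal library sums and 56 (17 and 39) in a fit of the 6 libraries alone, and with 1 library left out it ran from 149 to 307, with 56 to 99 higher and 87 to 208 lower. It stayed within 1.5 times with median ratio scaling, a pseudocount of 0.1, no filter, no trend, isoforms in place of genes and isoforms at 0 left out. With a replicate block 454 genes were called, 401 of them among the 496. Same-numbered libraries had correlations of deviations of −0.27, −0.16 and 0.00 across genes. These gave no sign of pairing, but deviations within so few libraries cannot settle whether replicate numbers share a source. A group of 85 genes (35 higher and 50 lower) was called under every alternative by gene except the fit of the 6 libraries alone. Of 78 named genes called, 70 were called again with median ratio scaling, 66 with equal sums, 68 with the block, and 33 to 53 with 1 library left out, and of 77 named genes 25 were called again in the fit of the 6 libraries alone. With 1 library left out, calls ran from 3 to 7 in carbon fixation (7 as reported), 1 to 4 in glycolysis (5), 1 to 3 in isoprenoid precursors (3), 1 to 4 in metal ion transport (4), 2 to 4 in steroid biosynthesis (4), 1 to 3 in antenna proteins (3), 0 to 2 in phenylpropanoid biosynthesis (2) and protein folding (1) and 0 to 1 in nitrogen metabolism (1). Among the named genes called, only Lsat_1_v5_gn_2_93080 reversed, to 0.10 without its isoforms at 0. Of the 496 genes, 2 changed sign in that setting. In melatonin leaves the fit of both groups alone called 10 genes in place of 43. The difference between arms gave 12 calls among isoforms and 0 without isoforms at 0. The difference between leaf and root gave 734 calls when only the compared groups were fitted and between 721 (without LCd0 replicate 3) and 1175 with 1 library left out, and 749 without LCd1 replicate 3. The causes of these shifts were not tested. A design of 3 libraries a group, depths estimated only relative to the first LCd0 library and the lack of counts limit what can be seen. Small changes of genes with low FPKM were not detectable at this spread.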

Other observations

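All 4 tested genes under protein-disulfide reductase activity, a group of enzymes that reduce bonds between cysteines, rose in the leaf (median log2 change 1.51). Beside Lsat_1_v5_gn_9_26160 and Lsat_1_v5_gn_4_46420 these were Lsat_1_v5_gn_8_145260, with 25.3, 39.9 and 44.9 FPKM in LCd0 and 63.3, 74.0 and 91.2 FPKM in LCd1, and Lsat_1_v5_gn_9_63460, with 32.3, 65.6 and 44.0 FPKM and 87.1, 85.2 and 90.2 FPKM (limma log2 changes 1.06 and 0.93, adjusted p = 0.039 and 0.049). Their median was 1.68 in leaves with melatonin. The term was chosen after its values were seen, and its members come only from tables for the first day, so that neither value is independent evidence.

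The flavonoid biosynthesis term, also chosen after its values were seen, had 9 tested genes, none of them called by limma, with a median of −0.46 and 6 negative values. Lsat_1_v5_gn_2_76880, Lsat_1_v5_gn_8_99521, Lsat_1_v5_gn_8_117441 and Lsat_1_v5_gn_9_66221 had log2 changes of −3.16, −1.94, −1.70 and −1.58 (adjusted p = 0.062, 0.068, 0.15 and 0.062), and −2.04, −1.54, −1.57 and −1.54 in leaves with melatonin. In the first LCd0 library all 4 genes had their highest value, at 898, 495, 328 and 15.4 FPKM.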
